A study of Mus musculus with 8 samples.

Results

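Cathepsins and calpains were followed in mouse lens RNA through 9 genes: the cathepsins Ctsb, Ctsd, Ctsh, Ctsl and Ctss, the calpains Capn1, Capn2 and Capn3, and Cast, the calpain inhibitor. All MG-U74Av2 probe sets annotated to these genes were taken, which gave 15 of 12422 after control probe sets were left out, and 13 of them were among the 10078 that were tested. A probe set is a group of short oligonucleotides designed against a transcript or a family of related transcripts, and its value is a signal, a brightness on a linear scale. Tested were those with a mean signal above 50 in some group. Differences of log2 signals were estimated in a single limma fit, and those with a Benjamini-Hochberg adjusted p under 0.05 over all tested probe sets are called. The 8 arrays fell into 4 groups with 2 arrays each. Each strain, 129SvJae or C57BL/6J, was present as WT and with the α3Cx46 gene knocked out (KO). Both strains are inbred, and α3Cx46 is connexin 46, the gap junction subunit of lens fiber cells that Gja3 encodes. All lenses were taken at 10 days of age from mice of both sexes, and between 20 and 30 lenses of a group were pooled before RNA was isolated. As the study describes it, the KO construct contained the polyadenylation sequence of protamine. No source used here says if the pools of a group were made from separate animals, and the p-values therefore measure only how far these samples spread, which may be technical.

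Cathepsins B, H, L and S are cysteine proteases of the lysosome, and cathepsin D is its aspartic protease. They break down proteins that reach lysosomes by endocytosis and autophagy, and cystatins inhibit the cysteine cathepsins outside the lysosome. Calpains are cysteine proteases of the cytosol that calcium activates. Calpains 1 and 2 work with a small subunit and are inhibited by calpastatin, while calpain 3, known from muscle, has splice forms that are abundant in rodent lens. Fiber cells lose their nuclei and other organelles as they mature, and crystallins and cytoskeletal proteins of the fiber are known calpain substrates.

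The promoter windows of Ctsl and Ctsd are printed because the signals of these cathepsins, among the brightest of the 15 probe sets, had opposite signs in the strain comparison. Both sequences are from RefSeq on GRCm38.p6, a C57BL/6J assembly, and the 129SvJae sequence was not used here. Each window has 300 bases, 250 before and 50 after the annotated start, printed 5′ to 3′ on the minus strand. The Ctsl window is chr13:64370471-64370770 and that of Ctsd is chr7:142387778-142388077. Capitals mark CACGTG, the core of the motif bound by the lysosomal gene regulator TFEB and other basic helix-loop-helix factors.
Ctsl: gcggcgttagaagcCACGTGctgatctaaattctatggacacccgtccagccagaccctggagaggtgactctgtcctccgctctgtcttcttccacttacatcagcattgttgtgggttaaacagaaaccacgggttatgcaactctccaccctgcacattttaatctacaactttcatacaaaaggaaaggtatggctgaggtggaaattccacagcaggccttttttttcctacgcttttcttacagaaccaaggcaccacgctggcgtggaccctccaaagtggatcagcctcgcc
Ctsd: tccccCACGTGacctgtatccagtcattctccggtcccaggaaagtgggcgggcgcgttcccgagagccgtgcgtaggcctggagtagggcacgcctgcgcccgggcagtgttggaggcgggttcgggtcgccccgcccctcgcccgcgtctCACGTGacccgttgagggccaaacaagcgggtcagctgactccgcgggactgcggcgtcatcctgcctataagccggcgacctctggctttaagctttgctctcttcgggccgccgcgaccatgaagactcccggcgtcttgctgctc

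CACGTG reads the same on both strands. It began 236 bases before the Ctsl start, and 245 and 98 bases before that of Ctsd. The longer TCACGTGA, which contains CACGTG and also reads the same on both strands, was found once in the Ctsd window, from 99 bases before the start, and not in that of Ctsl. Among 32851 promoter windows of the same length, 2349 (7.15%) held CACGTG and 320 (0.974%) held TCACGTGA. The table matched 12 windows to 7 of the 9 genes, and 2 of the 12, those printed, held CACGTG. Ctsb and Ctsh had no entry. A match describes the letters of the window only.

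The labels were checked against marker genes. Crystallins of fiber cells were bright on every array, with Crygd at 33962 to 79380 and Cryaa at 31275 to 72806. Gja3 lay between 1100.3 and 3381 on WT arrays and between 445 and 519 on KO arrays, with a log2 ratio of KO to WT of -2.23 (adjusted p = 0.0160 from limma). No source used here says where its probe set lies in the disrupted gene. Prm1, protamine 1, lay between 4.70 and 387 on WT and between 1340 and 2167 on KO arrays. By the run records, the replicate 1 arrays shared a scan session, the replicate 2 arrays except that of 129SvJae WT shared another, and this last array was scanned by itself. A communication error of the fluidics station was noted for C57BL/6J WT replicate 1. Summed signals of 7 genes listed for the lens epithelium lay between 12329 and 15148 on 129SvJae and between 13803 and 16431 on C57BL/6J arrays. Most of that sum was Cryab (8822 to 12932), a crystallin that fiber cells also hold, while Gja1 lay between 1083 and 2099 and Pax6 between 640 and 802. Those of 8 fiber genes were 279450 to 355883 in 129SvJae WT lenses, 196173 to 267993 in 129SvJae KO lenses, 245203 to 379236 in C57BL/6J WT lenses and 227672 to 284504 in C57BL/6J KO lenses. In bulk RNA fewer cells of a type and less RNA per cell cannot be told apart.

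The first question was which of these genes differed between the strains. Ctsl, which encodes cathepsin L, was the called member, and it was lower in C57BL/6J lenses. Its signals were 4390 and 5555 in 129SvJae WT lenses and 5224 and 6069 in 129SvJae KO lenses. In C57BL/6J they were 2328 and 2366 in WT and 2998 and 2847 in KO lenses. All 4 C57BL/6J arrays thus lay below all 4 of 129SvJae, and the gap between the strains was wider than the range within either C57BL/6J genotype. The log2 ratio of C57BL/6J to 129SvJae, averaged over genotypes, was -1.01 (SE 0.14, 95% interval -1.31 to -0.71, adjusted p = 0.00379 from limma, 4 arrays against 4). On the linear scale 129SvJae lenses were 2.01-fold higher, with an interval of 1.64 to 2.48. The study lists Ctsl among the genes it selected on these arrays, so this direction is not independent evidence. By real-time PCR the study also reports a Ctsl difference between the strains in the same direction, in both genotypes. It is not clear from the study if the RNA for that PCR came from other lenses than those of the arrays.

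The order of the Ctsl group means was 129SvJae KO at 5646 ± 598 (SD, n = 2), 129SvJae WT at 4973 ± 823 (SD, n = 2), C57BL/6J KO at 2922 ± 107 (SD, n = 2) and C57BL/6J WT at 2347 ± 26.7 (SD, n = 2). The arrays of the first and second of these groups overlapped, and the other neighbours did not. In WT lenses alone the log2 ratio was -1.07 (SE 0.20, 95% interval -1.50 to -0.65), and it did not pass limma over all probe sets (adjusted p = 0.0895). With the replicate number as a block it did (adjusted p = 0.0318 from limma). Blocking on the scan session instead gave -0.93, which did not pass. That block left 129SvJae WT with 1 array, since its replicate 2 was alone in its session. In KO lenses the ratio was -0.95 (SE 0.20, 95% interval -1.37 to -0.52, adjusted p = 0.187 from limma), which passed when scan sessions were blocked (adjusted p = 0.0428 from limma) and not when replicate numbers were (adjusted p = 0.0646 from limma). Each of these single-genotype ratios was called in 1 of 24 alternatives. Among arrays scanned in 1 session, the log2 ratio was -0.92 between the replicate 1 arrays of WT lenses, -0.80 between those of KO lenses and -1.09 between the replicate 2 arrays of KO lenses. The remaining pair, 129SvJae WT replicate 2 and C57BL/6J WT replicate 2, came from different sessions and gave -1.23. Ctsl was thus lower in C57BL/6J within each session that held both strains. The averaged ratio stayed between -1.09 and -0.93 in the alternatives, but it lost its call with arrays centred on the median (adjusted p = 0.104), without a trend in the variance prior (0.460, limma) and in the test named in the study's methods, run on log2 signals with Benjamini-Hochberg adjustment (0.0912).

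**Figure D1:**
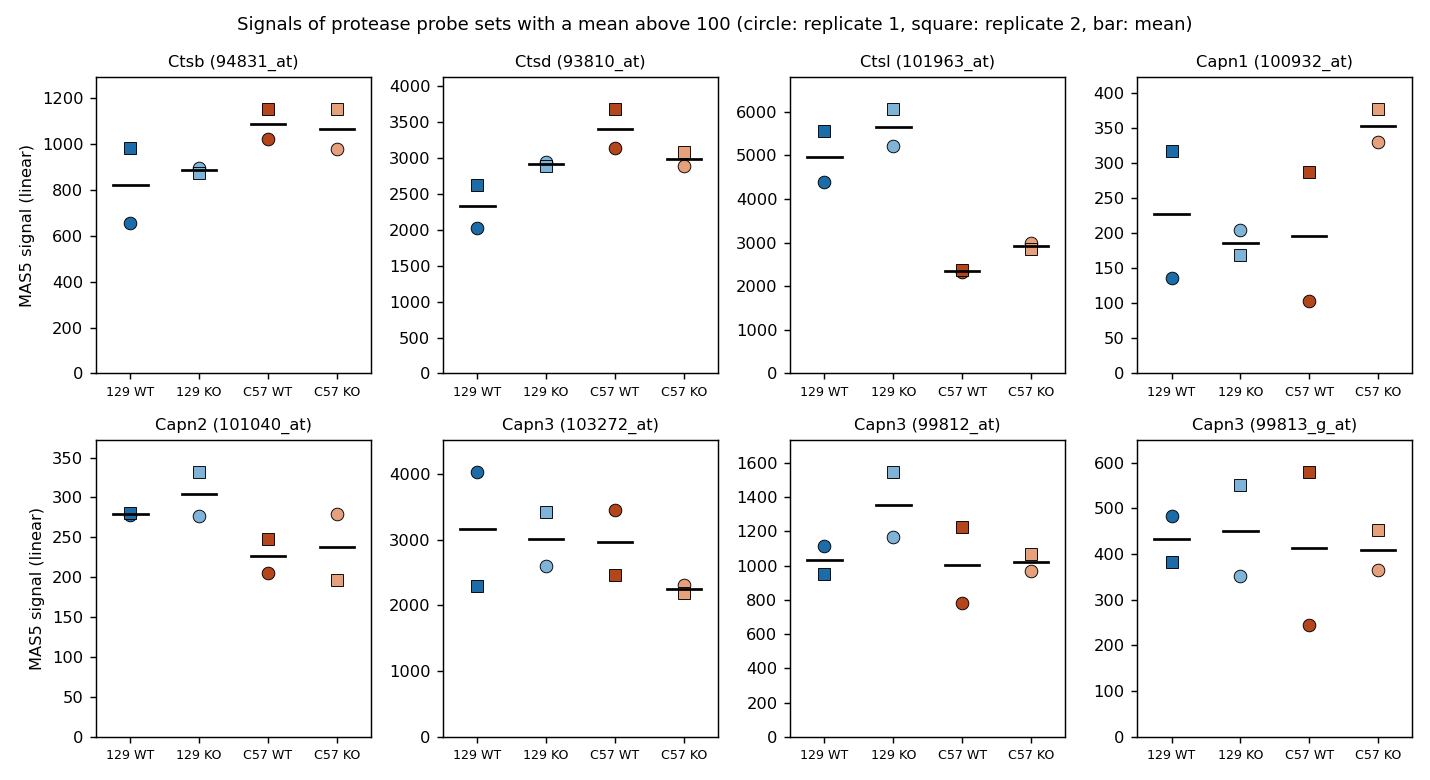
Signals (linear, from 0) of the 8 cathepsin and calpain probe sets with a mean above 100, by strain and genotype. Circles are replicate 1, squares replicate 2 and bars the group means. Ctsl is the only panel in which the 129SvJae arrays (4390 to 6069) and the C57BL/6J arrays (2328 to 2998) do not overlap.

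The plot of signals by group shows this separation beside the other bright members. Of the 13 tested probe sets, 1 was called for the averaged strain difference, against 0.367% of all tested probe sets (37 of 10078), and the 1 was lower, against 0.109% of all that were called lower (11). The same probe set was the 1 with an unadjusted p under 0.05, as had 6.98% (703) of all tested probe sets, and the 1 whose strains did not overlap, as for 5.57% (561) of all. The ratios of the 13 were positive for 7 and negative for 6, and their median of 0.01 was that of all tested probe sets, 0.01. A count of 1 in 13 at the unadjusted threshold is near that background, so the called difference is a result about Ctsl and not about the 13 as a set.

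Cathepsin D, from Ctsd, gave ratios of the opposite sign. Its signals were 2027 and 2627 in 129SvJae WT lenses, 2951 and 2886 in 129SvJae KO lenses, 3134 and 3686 in C57BL/6J WT lenses and 2885 and 3082 in C57BL/6J KO lenses. The C57BL/6J WT arrays lay above all others and the 129SvJae WT arrays below all others, while the KO arrays of the strains overlapped. The averaged log2 ratio was 0.29 (SE 0.14, 95% interval -0.01 to 0.60, adjusted p = 0.751 from limma). In WT lenses it was 0.56 (SE 0.20, 95% interval 0.12 to 0.997, unadjusted p = 0.0163, adjusted p = 0.677 from limma), and in KO lenses 0.03 (SE 0.20, 95% interval -0.41 to 0.47), or -0.065 with arrays centred on the median. The difference between these ratios was -0.53 (SE 0.29, 95% interval -1.15 to 0.09, adjusted p = 0.9998 from limma), so that the ratios of WT and KO lenses were not shown to differ.

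Cathepsin B, which also trims peptides as an exopeptidase, was read by 4 probe sets, of which the 1 above 100 had signals of 654 and 984 in 129SvJae WT lenses and 897 and 874 in 129SvJae KO lenses. In C57BL/6J they were 1022 and 1153 in WT and 980 and 1153 in KO lenses. The strains overlapped by the lowest C57BL/6J and the highest 129SvJae array. The averaged log2 ratio was 0.35 (SE 0.18, 95% interval -0.04 to 0.74, adjusted p = 0.773 from limma), with 0.44 in WT and 0.26 in KO lenses. The other Ctsb probe sets had signals between 5.2 and 102, and the averaged ratios of those tested were 0.03 and 0.01. Each of these averages joined ratios of opposite sign. Behind the 0.03 were -1.43 for WT lenses and 1.49 for KO lenses. Behind the 0.01 were 1.37 for WT lenses and -1.35 for KO lenses. None of these ratios was called.

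**Figure D2:**
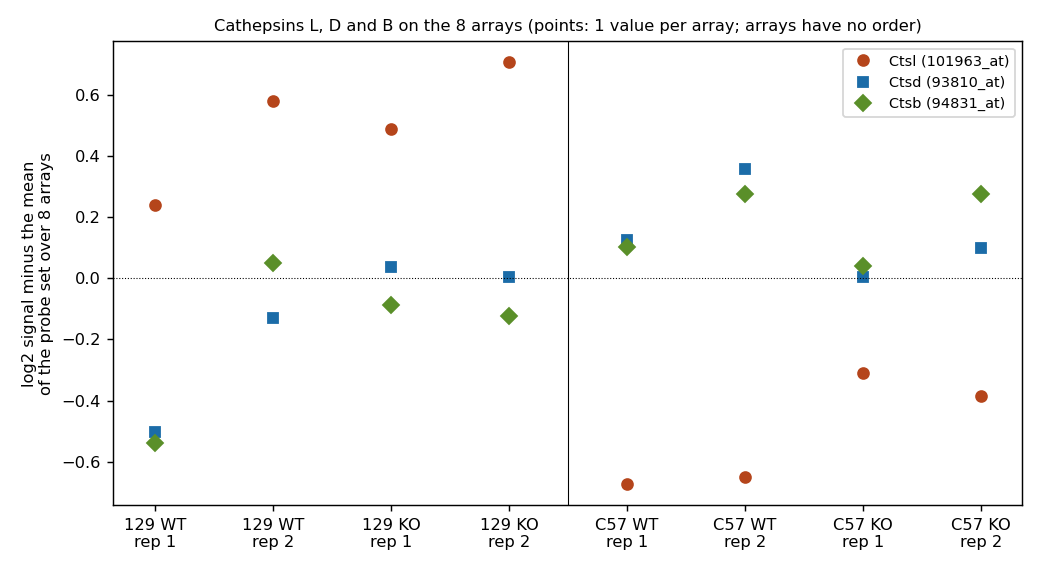
Log2 signals of Ctsl, Ctsd and Ctsb on the 8 arrays, each less its own mean over the arrays, 1 point per array (129SvJae left of the line, C57BL/6J right). Ctsl lies above 0 on the 4 arrays of 129SvJae and below 0 on the 4 of C57BL/6J, while Ctsd and Ctsb lie above 0 on the C57BL/6J arrays and on both sides of 0 on the 129SvJae arrays.

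The plot of centred log2 signals sets these cathepsins side by side on each array, and the strain differences of Ctsd and Ctsb did not pass the test.

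The remaining cathepsins were dim. Ctsh, encoding cathepsin H, an aminopeptidase of the lysosome, had signals of 43.9 and 39.4 in 129SvJae WT lenses, 18.5 and 16.5 in 129SvJae KO lenses, 19.8 and 60.6 in C57BL/6J WT lenses and 149.8 and 78.3 in C57BL/6J KO lenses. Signals near or under 50, the level used as a minimum, are close to background, and 3 of the 8 Ctsh signals exceeded it. The C57BL/6J KO arrays lay above all others. Only this group had a mean above 50, so Ctsh was tested through the group on which its KO strain ratio and interaction draw. The averaged log2 ratio was 1.18 (SE 0.66, 95% interval -0.24 to 2.61, adjusted p = 0.820 from limma). In KO lenses it was 2.63 (SE 0.93, 95% interval 0.62 to 4.65, unadjusted p = 0.0142, adjusted p = 0.9997 from limma), and in WT lenses -0.26 (SE 0.93). The sign of the WT ratio turned to 0.14 with signals under 50 set to 50, and to 0.54 without C57BL/6J WT replicate 1.

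Ctss, encoding cathepsin S of antigen-presenting cells, had signals of 91.2 and 70.2 in 129SvJae WT lenses, 29.5 and 41.8 in 129SvJae KO lenses, 127.9 and 50.8 in C57BL/6J WT lenses and 82.5 and 43.3 in C57BL/6J KO lenses. The strains overlapped, and so did the genotypes. The averaged strain ratio was 0.39 (SE 0.56, 95% interval -0.82 to 1.60, adjusted p = 0.954 from limma), and the KO ratio averaged over strains was -0.81 (SE 0.56, 95% interval -2.02 to 0.40, adjusted p = 0.998 from limma). Of 28 probe sets of 18 macrophage and leukocyte genes, 11 had a group mean above 50 and 14 were at or under 50 on every array. Their summed signals were 3612 to 4196 in 129SvJae WT lenses, 5505 to 5514 in 129SvJae KO lenses, 3370 to 7199 in C57BL/6J WT lenses and 4119 to 4748 in C57BL/6J KO lenses, most of it from C1qb (1927 to 6089). Cd14 lay between 162 and 306 and Csf1r between 74.7 and 405. The part of such cells in the Ctss signals was not tested.

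**Figure D3:**
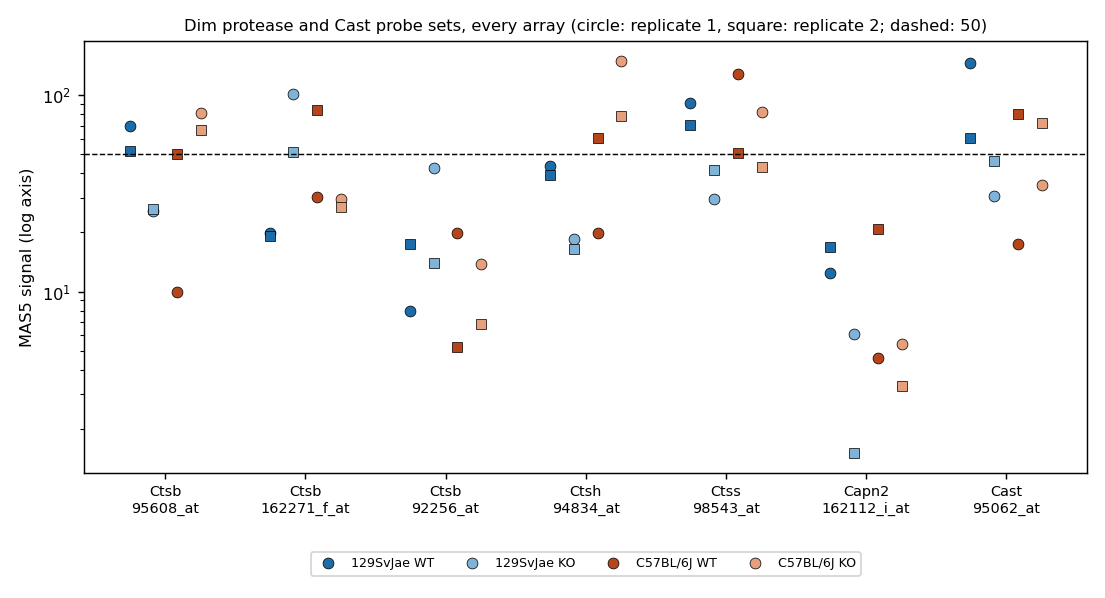
Signals on a log axis of the 7 dim probe sets of Ctsb, Ctsh, Ctss, Capn2 and Cast on every array, by group. Circles are replicate 1, squares replicate 2 and the dashed line marks 50. Values of a group often differ several fold between its arrays, and Ctsh in C57BL/6J KO lenses (149.8 and 78.3) lies above the other Ctsh values.

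None of the calpains was called between the strains. Capn3 was bright through each of its 3 probe sets. The brightest had signals of 4024 and 2294 in 129SvJae WT lenses, 2605 and 3415 in 129SvJae KO lenses, 3450 and 2465 in C57BL/6J WT lenses and 2309 and 2195 in C57BL/6J KO lenses. The arrays of the strains overlapped widely, and the group means ran from 3159 ± 1223 (SD, n = 2) in 129SvJae WT to 2252 ± 80.5 (SD, n = 2) in C57BL/6J KO lenses, with every neighbour in that order overlapping except C57BL/6J KO. Its averaged log2 ratio was -0.23 (SE 0.19, 95% interval -0.65 to 0.18, adjusted p = 0.915 from limma). Both other Capn3 probe sets also had negative ratios, -0.24 (95% interval -0.64 to 0.17) and -0.15 (95% interval -0.77 to 0.46), and the last turned to 0.16 without C57BL/6J WT replicate 1. Their signals lay between 780 and 1545 and between 246 and 579. No source used here names the splice forms that each probe set reads.

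Capn1 encodes the catalytic subunit of calpain 1. Its signals were 136.5 and 317 in 129SvJae WT lenses, 204 and 169 in 129SvJae KO lenses, 102.6 and 288 in C57BL/6J WT lenses and 329 and 377 in C57BL/6J KO lenses. The replicates of each WT group differed more than the WT means of the strains did, and the C57BL/6J KO arrays lay above the other 6. The averaged strain ratio was 0.32 (SE 0.37, 95% interval -0.48 to 1.13, adjusted p = 0.9502 from limma), and -0.05 without C57BL/6J WT replicate 2. The KO ratio in C57BL/6J lenses was 1.04 (SE 0.53, 95% interval -0.11 to 2.18, unadjusted p = 0.0720, adjusted p = 0.9999 from limma).

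Capn2, the catalytic subunit of calpain 2, had signals of 278.5 and 280.8 in 129SvJae WT lenses, 276 and 332 in 129SvJae KO lenses, 206 and 248 in C57BL/6J WT lenses and 279 and 197 in C57BL/6J KO lenses through its bright probe set. The C57BL/6J KO replicate 1 array alone reached the 129SvJae range. The averaged ratio was -0.34 (SE 0.26, 95% interval -0.89 to 0.22, adjusted p = 0.897 from limma). A second Capn2 probe set, between 1.5 and 20.9 on all arrays, was not tested, as was a Ctsb probe set between 5.2 and 42.9. Cast, which encodes calpastatin, had signals of 145.8 and 61.0 in 129SvJae WT lenses, 30.7 and 46.4 in 129SvJae KO lenses, 17.4 and 80.8 in C57BL/6J WT lenses and 35.1 and 72.2 in C57BL/6J KO lenses. Its averaged ratio was -0.46 (SE 0.67, 95% interval -1.91 to 0.99, adjusted p = 0.954 from limma), with 4 of 8 signals above 50, and it was 0.10 without C57BL/6J WT replicate 1.

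**Figure D4:**
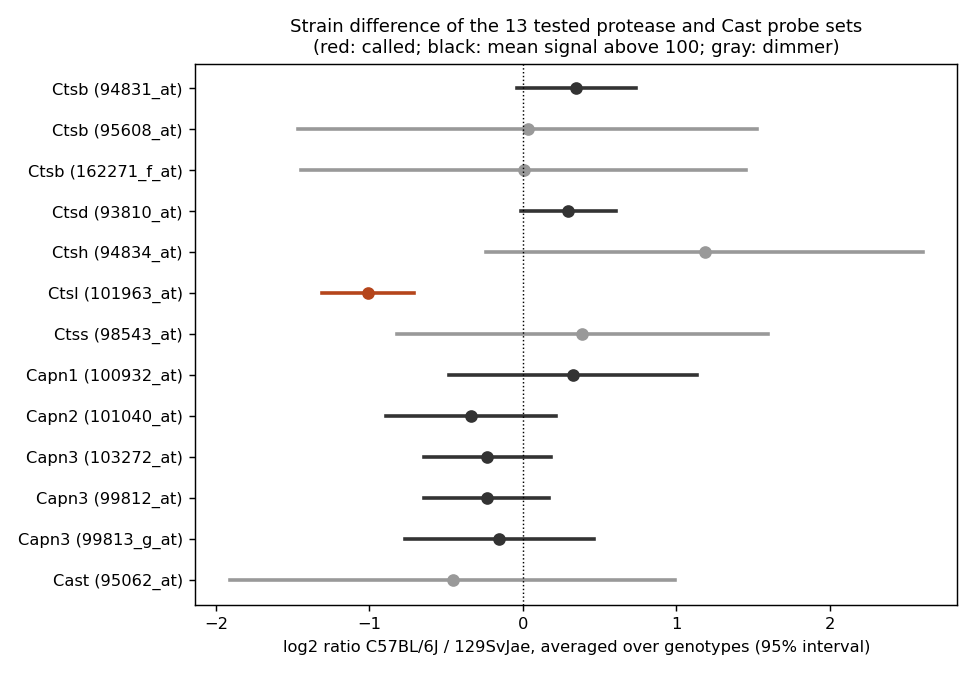
Strain differences (log2 of C57BL/6J over 129SvJae signal, averaged over genotypes) with 95% intervals for the 13 tested probe sets (limma, 4 arrays against 4). Red is called, black has a mean signal above 100 and gray is dimmer. The interval of Ctsl (-1.31 to -0.71) lies below 0, and all others include 0.

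The plot of intervals shows how much these arrays can say of the members that were not called. Over the 8 probe sets with a mean above 100, the intervals of the averaged strain ratio ran from -1.31 to 1.13, and the narrowest were those of Ctsl, Ctsd and Ctsb. In WT lenses 0 of the 13 members were called by limma (2, Ctsl and Ctsd, at an unadjusted p under 0.05, as were 6.47% of all), where 0.0695% of all tested probe sets were. In KO lenses 0 were called (2, Ctsl and Ctsh, unadjusted, as were 3.74% of all), against 0.0893%. With the statistic of the study's methods on log2 signals and Benjamini-Hochberg adjustment, 0 members passed in either genotype or in the average. The criteria of those methods, a fold of at least 1.8, a level above 50 in a group compared and an unadjusted p of at most 0.01 from that statistic, were met by Ctsl in the average (1 of 13, beside 1.28% of all tested probe sets), by 0 members in WT lenses (0.486% of all) and by 1 in KO lenses (0.417% of all). The 1 was a dim Ctsb probe set, with signals of 25.7 and 26.5 in 129SvJae KO lenses and 80.9 and 66.5 in C57BL/6J KO lenses. Its log2 ratio there was 1.49 (SE 0.98, 95% interval -0.62 to 3.60, adjusted p = 0.9997 from limma), and on linear signals it did not meet the criteria. The study itself reports Ctsl in each genotype with a p under 0.01 from its t statistic. Its methods do not give the form of that statistic, so the counts here need not match its list.

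The second question was whether loss of α3Cx46 moved these genes. No member was called. Averaged over strains, limma called 0 of 13 (0 at an unadjusted p under 0.05), and 0.0198% of all tested probe sets, which were Gja3 and Prm1. In 129SvJae lenses it called 0 members (0 unadjusted) and 0% of all probe sets, and in C57BL/6J lenses 0 members (0 unadjusted) and 0.00992% of all. The methods' statistic after Benjamini-Hochberg adjustment passed 0 members in each of these, and the methods' criteria on log2 signals were met by 0 members, beside 0.456%, 0.298% and 0.258% of all tested probe sets for the average, 129SvJae and C57BL/6J. No member's genotypes failed to overlap, while those of 2.19% of all tested probe sets did. Beside this, 9 of the 10 fiber marker probe sets had negative averaged KO ratios (median -0.35, against -0.02 over all tested probe sets), of which Gja3 was called, and their part in the members' values was not tested. The averaged KO ratios of the 13 ran from -0.81 to 0.52. For the 8 with a mean above 100 they ran from -0.20 to 0.44, with intervals between -0.61 and 1.24. Ctsl had 0.25 (95% interval -0.05 to 0.55, adjusted p = 0.998 from limma), with 0.19 in 129SvJae and 0.32 in C57BL/6J lenses. Ctsd had 0.07 (95% interval -0.23 to 0.38), Ctsb 0.06 (95% interval -0.33 to 0.44) and the brightest Capn3 probe set -0.20 (95% interval -0.61 to 0.21).

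The interaction of strain and genotype, the log2 strain ratio in KO lenses minus that in WT lenses, was called for 0 members and for 0% of all tested probe sets by limma, the 1 tool run on it. At an unadjusted p under 0.05 stood 1 member, Ctsh, beside 2.11% (213) of all tested probe sets. Ctsh had been tested only through its C57BL/6J KO mean. Its interaction was 2.90 (SE 1.32, 95% interval 0.05 to 5.74, unadjusted p = 0.0465, adjusted p = 0.9998 from limma). That of Ctsl was 0.13 (SE 0.28, 95% interval -0.47 to 0.72, adjusted p = 0.9998 from limma), and it was -0.04 without 129SvJae WT replicate 2. Dim Ctsb probe sets had interactions near that of Ctsh in size and of opposite signs. They were 2.92 (SE 1.38, unadjusted p = 0.0546 from limma) and -2.72 (SE 1.34, unadjusted p = 0.0638 from limma).

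Around these members, 7 lists of related genes were read for the averaged strain difference, and limma called none of their probe sets in any contrast. Of 18 other cathepsin and legumain genes, 7 were tested through 10 probe sets, with 7 positive and 3 negative ratios and a median of 0.27, beside 0.01 over all tested probe sets. At an unadjusted p under 0.05, 3 of the 10 were higher in C57BL/6J, as were 3.65% of all tested probe sets (3.32% were lower). They came from Ctse, an aspartic protease of endosomes, and Ctsc, which activates granule proteases. Ctse repeated among them, so the 3 are not separate genes. The first Ctse probe set had signals of 134.1 and 133.6 in 129SvJae WT lenses, 421 and 118 in 129SvJae KO lenses, 378 and 457 in C57BL/6J WT lenses and 384 and 406 in C57BL/6J KO lenses. The strains overlapped through 129SvJae KO replicate 1, and the ratio was 1.23 (SE 0.35, adjusted p = 0.272 from limma). The other Ctse probe set of the 3 had 0.91 (SE 0.28, adjusted p = 0.361 from limma) with no overlap between the strains. A further tested Ctse probe set, not among the 3, had 1.03. The Ctsc ratio of 2.34 (SE 0.91, adjusted p = 0.557 from limma) rests on 129SvJae signals of 4.70 to 13.9 and C57BL/6J signals of 16.8 to 121, with 1 of the 8 above 50. Its mean exceeded 50 only in C57BL/6J KO lenses, so this probe set was tested only through a group in which it was higher. The other tested Ctsc probe set had a ratio of the opposite sign, -0.20.

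Inhibitors were next. Of 24 cystatins and other cathepsin inhibitors, 7 were tested through 8 probe sets, 4 positive and 4 negative, with a median of 0.14 and 0 at an unadjusted p under 0.05. Cystatin C, from Cst3, lay between 2295 and 2764 on 129SvJae and between 2891 and 3653 on C57BL/6J arrays, without overlap, and its ratio was 0.28 (SE 0.14, 95% interval -0.02 to 0.57, adjusted p = 0.764 from limma). A dimmer Cst3 probe set had 0.55 (SE 0.39), and Serpinb6a, a serpin of the cytosol, had 0.31 (SE 0.19).

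Of 13 genes listed with the other calpains and the small subunits, 7 were tested through 10 probe sets, 2 positive and 8 negative, with a median of -0.44. The 1 with an unadjusted p under 0.05 was Dbi, acyl-CoA-binding protein, which is no calpain. It was lower in C57BL/6J, as were 3.32% of all tested probe sets at that threshold. Its signals were 3399 and 10167 in 129SvJae WT lenses, 5895 and 7284 in 129SvJae KO lenses, 3327 and 3706 in C57BL/6J WT lenses and 2798 and 3197 in C57BL/6J KO lenses. The strains overlapped through 129SvJae WT replicate 1, and the ratio was -0.94 (SE 0.26, adjusted p = 0.226 from limma). The study links Dbi to the activation of a calpain. Its discussion calls Dbi lower in 129SvJae, while its own list has Dbi lower in C57BL/6J, the direction seen here. Capn10 had -1.39 (SE 0.92) from signals of 7.20 to 109, and -0.06 through another probe set. Capn6, a calpain without protease activity, had -0.67 (SE 0.45) from signals of 54.6 to 214, and -1.15 and -0.56 through its other probe sets. Capns1 had 0.06, Capn5 0.21, Capn7 -0.15 and Capn9 -0.32. Repeated probe sets of Capn6 and Capn10, and Dbi, thus made up most of the negative ratios. Of the calpain substrates of fiber cells, 11 of 18 genes were tested through 14 probe sets, 10 positive and 4 negative, with a median of 0.06 and 0 at an unadjusted p under 0.05. Filensin (Bfsp1) had 0.22 (SE 0.14), the water channel Mip 0.20 (SE 0.14) and vimentin (Vim) 0.72 (SE 0.51).

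Among the other genes of the lysosome, 26 of 45 genes for hydrolases and their activators were tested through 33 probe sets, 26 positive and 7 negative, with a median of 0.26. At an unadjusted p under 0.05, 3 were higher and 3 lower in C57BL/6J, beside 3.65% and 3.32% of all tested probe sets. Hgsnat, which acetylates heparan sulfate for its breakdown, had signals of 301 and 154 in 129SvJae WT lenses, 175 and 95.5 in 129SvJae KO lenses, 469 and 359 in C57BL/6J WT lenses and 339 and 453 in C57BL/6J KO lenses. The strains did not overlap, and the ratio was 1.26 (SE 0.31, adjusted p = 0.163 from limma). The study lists Hgsnat among the genes it chose on these arrays. The GM2 activator Gm2a had 0.90 (SE 0.30, adjusted p = 0.437 from limma), and Ppt2, a thioesterase, -0.83 (SE 0.31, adjusted p = 0.533 from limma). Of the lysosomal membrane and sorting genes, 36 of 47 were tested through 47 probe sets, 19 positive and 28 negative, with a median of -0.05 and 4 lower at an unadjusted p under 0.05. The cholesterol carrier Npc2 had -0.49 (SE 0.17, adjusted p = 0.449 from limma), Laptm4b -0.42 (SE 0.17, adjusted p = 0.618 from limma) and Ap3b1, an adaptor subunit that sorts cargo to lysosomes, -0.42 (SE 0.18, adjusted p = 0.644 from limma).

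Caspases and other proteins of organelle loss were the last list, with 14 of 22 genes tested through 22 probe sets, 11 positive and 11 negative, and a median of 0.05. Alox15, a lipoxygenase that acts on organelle membranes, was the 1 with an unadjusted p under 0.05. It was higher in C57BL/6J, as were 3.65% of all tested probe sets at that threshold. Its signals lay between 169 and 250.1 on 129SvJae and between 334 and 831 on C57BL/6J arrays, without overlap, and the ratio was 1.40 (SE 0.29, adjusted p = 0.0708 from limma). The study lists Alox15, like Dbi, among the genes it chose on these arrays. By real-time PCR it also reports higher Alox15 in C57BL/6J lenses of both genotypes. Casp12 had -1.42 (SE 0.81). Bcl2, an inhibitor of apoptosis, had 0.36 (SE 0.22) through 1 probe set and -0.30 through the other tested.

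**Figure D5:**
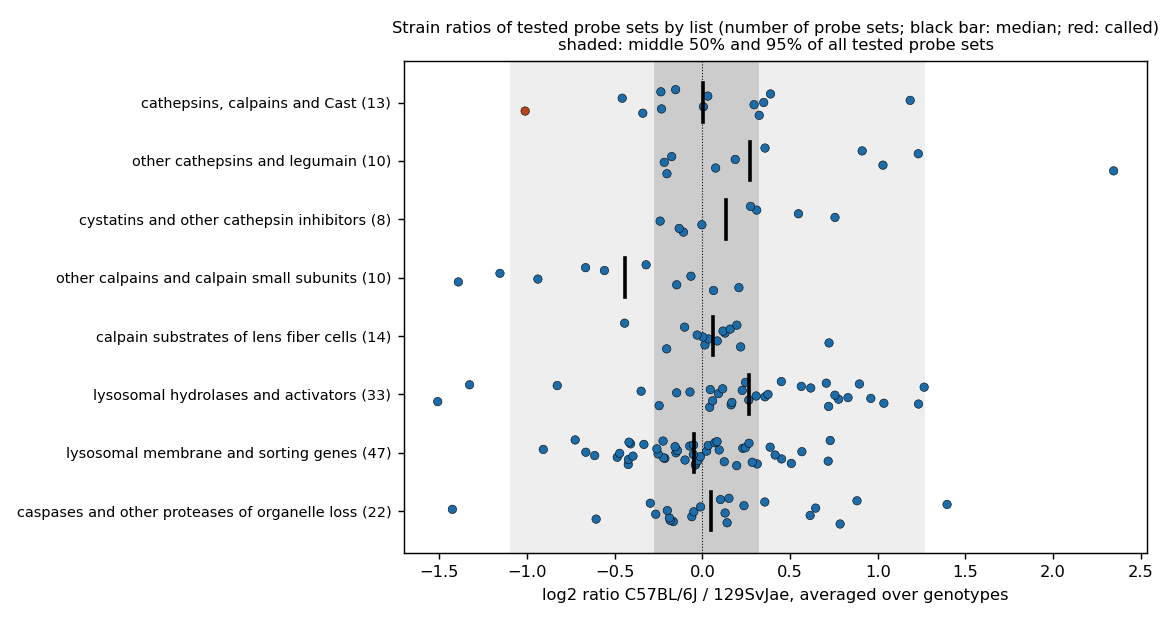
Log2 ratios of C57BL/6J to 129SvJae, averaged over genotypes, of every tested probe set of the members and of the 7 related lists, with the number of probe sets in parentheses. Black bars are medians, red is called, and shading marks the middle 50% (-0.27 to 0.32) and 95% (-1.09 to 1.26) of all tested probe sets. Ctsl is the called point.

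In the plot of ratios by list, most points lay within the middle 95% of all tested probe sets, and no list except the members held a called point. The shading describes single probe sets and is no measure for a list's median.

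Finally, the probe sets of other genes whose pattern over the 8 arrays was most like that of Ctsl were found by the root mean square difference of log2 signals, each centred on its own mean. For Ctsl the smallest differences were 0.16 for Gnb1, a G protein subunit, 0.16 for the kinase Mapk14, 0.17 for the glycolytic enzyme Pgam2, 0.17 for Rassf5 and 0.18 for Cdv3. The spread of Ctsl itself was 0.53 and the median difference over all tested probe sets 0.76. Of these 5, Pgam2 (log2 strain ratio -0.80, adjusted p = 0.0129) and Cdv3 (-0.83, adjusted p = 0.0325) were called by limma. The 5 were picked for a pattern like Ctsl on the same arrays, so their negative strain ratios follow from the choice. Gnb1 and Cdv3 are also on the study's list of genes chosen on these arrays. For the brightest Capn3 probe set the 5 were Nme1 at 0.07, Bmi1 at 0.12, 4933434E20Rik and Chrac1 at 0.13 and Gpn1 at 0.14, beside its own spread of 0.31 and a median of 0.61. None of these was called between the strains by limma, with adjusted p from 0.909 to 0.9503. They too were picked on the same arrays, for a pattern like Capn3.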

How the data were processed

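The data are 8 MG-U74Av2 arrays of lens RNA, 2 for each of 4 groups taken from the sample labels. The intensity values that the authors deposited are MAS5 signals, 1 for each probe set and array (the submitters' processing notes name the tool and give no version), which the methods describe as scaled to a mean of 250. Detection calls were not used here, and the number of arrays limits the precision. Arrays were brought to a trimmed mean of 250 (2% off each end), and signals below 1, of which there was 1, were raised to 1 for the log2 scale. Of 12488 probe sets, 66 were controls and were dropped, and 10078 had a mean above 50 in at least 1 group and were tested. Of the 12422 left after the controls, 10833 have 1 gene symbol, 396 several and 1193 none, and symbols were updated with RefSeq gene names of GRCm38.p6. No source used here names a genome build for the chip. In R 4.3.3, limma 3.58.1 fitted 4 group means with a variance trend (4 residual and 9.17 prior degrees of freedom). Calls were made at an adjusted p under 0.05 (Benjamini-Hochberg, over all probe sets).

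The members and lists were chosen with earlier results of these data known. The text names every member probe set, called genes of each list or else up to 3 of its probe sets with the smallest unadjusted p for the averaged strain difference, the 5 probe sets most like Ctsl and like Capn3, the 3 brightest of a marker list, and Gja3 and Prm1. Beside these it gives the other tested probe sets of Ctsc, Ctse and Bcl2 and the rest of the calpain list. No source used here states that arrays were paired, and the replicate block pairs them by replicate number only. In each of the 6 pairs of groups, same-numbered arrays deviated together from their group means (correlations of 0.130 to 0.206 across probe sets), and the numbers follow the scan session. The alternatives were other scalings, offsets, level filters and variance priors, array weights, a block for the replicate number or for the scan session, only the groups compared, the methods' t-test after adjustment, a mean over the probe sets of a gene, and each array left out in turn, where the lone array of a group is assumed to vary like the others. Counts at the methods' own criteria (fold 1.8 or more, level over 50, p 0.01 or less before adjustment) were added after the data were seen. The fit was tested on simulated data for 10078 probe sets. The simulated noise was independent between arrays, without the shared deviations of same-numbered arrays, and the changes were equal in both genotypes. Of 100 probe sets changed 4-fold and 100 changed 2-fold, the averaged strain difference recovered 64 and 26 (6 of its 96 calls were false), the WT contrast 39 and 9 (7 false calls in 55) and the KO contrast 35 and 5 (3 false calls in 43).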

Additional observations from a re-analysis of the deposited data

Results flagged for a closer look

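Ctsh, cathepsin H, stood out because its strain ratio differed between the genotypes at an unadjusted p under 0.05. The log2 ratio of C57BL/6J to 129SvJae was 2.63 in KO and -0.26 in WT lenses, a difference of 2.90 (SE 1.32, unadjusted p = 0.0465, adjusted p = 0.9998 from limma), and 5 of its 8 signals were under 50. Its mean exceeded 50 only in C57BL/6J KO lenses, so Ctsh was tested through a group on which this difference draws. Such a size was not particular to Ctsh. Dim Ctsb probe sets had differences of 2.92 and -2.72, with unadjusted p of 0.0546 and 0.0638 from limma.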

How the results depend on the processing

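Over the members, 625 values were recomputed, of which 609 kept their direction and side of the threshold, 4 fell below it, 2 passed it and 10 changed sign. Of 163 counts of called members, 157 were unchanged. The averaged Ctsl ratio was negative in 23 of 23 alternatives and called in 19. The count of called members became 0 with arrays centred on the median (Ctsl -1.06, adjusted p = 0.104), with no trend in the prior (-1.01, 0.460) and in the methods' t-test, whether on log2 (-1.01, 0.0912) or on linear signals (-1.01, 0.147). With the replicate block, the paired fit, the count in WT lenses became 1 (Ctsl, adjusted p = 0.0318 from limma) and that in KO lenses stayed 0 (0.0646). Blocking on scan sessions made the count in KO lenses 1 (Ctsl, 0.0428) and left that in WT lenses at 0. The session block left 129SvJae WT with 1 array. The replicate block changed no other call. Without single arrays, the averaged Ctsl ratio ran from -1.09 to -0.93 (adjusted p = 0.00304 to 0.0405 from limma), that of Capn1 from -0.047 to 0.70, the dimmest Capn3 probe set from -0.46 to 0.16, Cast from -1.01 to 0.10, Ctsh in WT lenses from -1.07 to 0.54, Ctsd in KO lenses from -0.016 to 0.079 and the Ctsl interaction from -0.043 to 0.30. Other values that changed sign were Ctsh in WT lenses with signals under 50 set to 50 (0.14), Ctsd in KO lenses with arrays centred on the median (-0.065) and the Ctsl interaction with the scan session as a block (-0.015). Over all probe sets, the 37 averaged strain calls were 86 when the scan session was a block, 58 under the replicate block, 19 after centring on the median and 1 with no variance trend, and 18 to 52 without single arrays (24, 18, 21 and 19 without 129SvJae KO replicates 1 and 2 and C57BL/6J KO replicates 1 and 2). The 7 calls of WT lenses became 31 without 129SvJae WT replicate 2, and 4 and 16 when C57BL/6J WT replicate 1 or 2 was left out, and the 9 of KO lenses became 2 without C57BL/6J KO replicate 2, 4 without replicate 1 of either KO group and 6 without 129SvJae KO replicate 2. The cause of these changes was not tested. Centring on the median moved the median log2 KO ratio of all probe sets from -0.05 to 0.09 in 129SvJae lenses. Signals near 50 and 2 arrays per group limit what the dim probe sets of Ctsb, Ctsh, Ctss, Capn2 and Cast can show.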
